A study of Mus musculus with 547 samples.

Results

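Of the 40824 genes counted in this mouse fetal liver series, 10 were followed here because they serve the work of a mature bile duct: Sctr, Cftr, Slc4a2, Car2, Aqp1, Aqp8, Ggt1, Slc5a1, Slc10a2 and Muc1. They were chosen by name, with earlier results of these data known. Each of the 10 was found once in the bulk and in the single-cell counts. Bulk RNA came from pools of liver cells carrying DLK1, a hepatoblast surface protein, with 2 libraries per day on the 9 days E10.5 to E18.5. The labels call those cells hepatoblast/hepatocyte, and give no strain or genotype for any sample. Single cells passed a gate for DLK1 (DLK+) or a gate for EpCAM (EpCAM+), a protein on the surface of epithelia, at E10.5, E11.5, E12.5, E13.5, E14.5, E15.5 and E17.5, which gave 447 cells, picked by hand after the sort. The authors' putative type splits them into 345 hepatoblasts or hepatocytes and 102 cholangiocytes, the cells that line bile ducts. A further 82 cells came from major liver lobes of E12.5 embryos, grown for 2 days on membranes in a medium with serum and EGF. These explants received DMSO (control), the protein kinase C agonist TPPB at 0.5 µM, the MEK1/2 inhibitor U0126 at 10 µM, or TPPB and U0126 together. All explant groups shared the medium, its EGF and the culture time, and they contain whatever other liver cells the lobes held. The series description gives the purpose of the explants as asking whether the MAPK pathway promotes cholangiocyte maturation.

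A mature cholangiocyte modifies bile by secreting and absorbing. Secretin, a gut hormone, binds the secretin receptor (Sctr), raises cAMP and opens the chloride channel Cftr. The chloride that leaves is exchanged for bicarbonate by the anion exchanger Slc4a2 (AE2), the bicarbonate is made from carbon dioxide and water by the carbonic anhydrase Car2, and water follows through the channel Aqp1. On the absorptive side, Ggt1 cleaves glutathione in bile, the sodium-glucose cotransporter Slc5a1 (SGLT1) takes up glucose, and the bile acid transporter Slc10a2 (ASBT) takes up bile acids. Muc1 is a membrane mucin that covers the apical face of epithelia. Aqp8 is a water channel best known from hepatocytes, and so serves here as the counterpart to Aqp1. Several members have strong expression elsewhere, Aqp1 in endothelium and red cells, and Car2 in red cells.

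The promoters of 3 members are shown because these genes mark the extremes of the data: Cftr had no read in any embryo cell, Muc1 was read in TPPB-treated explant cells, and Aqp8 was read in hepatocytes and lost with TPPB. Each line gives the 250 bases before the start of the RefSeq transcript, 5′ to 3′ (RefSeq, GRCm38.p6). Capitals mark the motif found.
Cftr: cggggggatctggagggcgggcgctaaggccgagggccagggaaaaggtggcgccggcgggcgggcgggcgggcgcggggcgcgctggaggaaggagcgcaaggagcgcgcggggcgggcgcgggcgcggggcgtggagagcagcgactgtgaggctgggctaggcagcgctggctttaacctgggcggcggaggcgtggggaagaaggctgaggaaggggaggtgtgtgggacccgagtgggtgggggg
Muc1: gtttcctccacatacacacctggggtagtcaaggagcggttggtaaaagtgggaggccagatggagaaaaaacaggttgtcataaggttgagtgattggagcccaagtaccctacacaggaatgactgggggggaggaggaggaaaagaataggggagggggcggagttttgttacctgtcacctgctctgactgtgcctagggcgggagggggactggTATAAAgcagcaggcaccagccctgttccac
Aqp8: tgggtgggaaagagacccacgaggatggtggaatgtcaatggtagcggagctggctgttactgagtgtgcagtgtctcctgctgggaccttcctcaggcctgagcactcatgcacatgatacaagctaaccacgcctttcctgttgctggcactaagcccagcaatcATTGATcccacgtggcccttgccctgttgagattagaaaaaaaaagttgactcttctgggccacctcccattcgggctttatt
The Cftr stretch lies at chr6:18170437-18170686 on the plus strand, the Muc1 stretch at chr3:89228806-89229055 on the plus strand and the Aqp8 stretch at chr7:123462044-123462293 on the plus strand. The Cftr promoter held 30 CG pairs and 76.4% G and C bases, against medians of 6 CG pairs and 52.4% over 32851 mouse promoters of the same length. Muc1 had 3 CG pairs and 54.8%, and Aqp8 had 5 CG pairs and 52.4%. A set of 5 motifs was searched on both strands: GTTAAT (from the HNF1 site), ATTGAT (an ONECUT core), TGANTCA (AP-1), TGACNTCA (a cAMP response element) and TATAAA (the element that TBP binds). Muc1 had the TATAAA match 31 bases before the start, a motif that 12.4% of all promoters held. Aqp8 had the ATTGAT match 83 bases before the start, which 6.72% of all promoters held. Cftr had no match to any of them. The other motifs were held by 6.43% (GTTAAT), 6.75% (TGANTCA) and 7.49% (TGACNTCA) of promoters. The table had entries for 8 of the 10 members, and none for Sctr or Car2.

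Gene positions are from GENCODE M21 on GRCm38. Sctr (ENSMUSG00000026387) lies at chr1:120006894-120063536 and Cftr (ENSMUSG00000041301) at chr6:18170687-18322768. Slc4a2 (ENSMUSG00000028962) lies at chr5:24423837-24440950 and Car2 (ENSMUSG00000027562) at chr3:14886273-14900770. Aqp1 (ENSMUSG00000004655) lies at chr6:55336432-55348555 and Aqp8 (ENSMUSG00000030762) at chr7:123462291-123468004. Ggt1 (ENSMUSG00000006345) lies at chr10:75561604-75586200 and Muc1 (ENSMUSG00000042784) at chr3:89229057-89233381. Slc5a1 (ENSMUSG00000011034) lies at chr5:33104219-33162870 and Slc10a2 (ENSMUSG00000023073), the one on the minus strand, at chr8:5083219-5105351.

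Bulk libraries held 14385574 to 22791119 reads and single cells 763480 to 2111839 reads, with a median of 1098050. Cells with the same group and the same set number (as given in the titles) were summed, and sums of at least 2 cells served as replicates. These were 42 sums from embryos and 10 from EpCAM+ explant cells. What a set is (animals, a sorting run or a plate) is not stated in the labels, so each p-value measures the spread between sets, which may be technical. Levels are given as normalised CPM (counts relative to library size after TMM scaling), and levels of different genes are compared only as TPM, which divides by gene length. The annotated types were checked by markers. At E17.5, 8 cholangiocyte markers summed to 7159 to 10626 CPM in annotated cholangiocytes and to 38.5 to 89.8 CPM in DLK+ cells, and Krt19 was at 0 in all 4 DLK+ sums. The 7 hepatic markers summed to 37402 to 58174 CPM in these cholangiocytes and to 321090 to 347304 CPM in the DLK+ cells. With plain library totals in place of TMM, the median log2 change of all genes fell by 1.42 between E18.5 and E10.5 in bulk, fell by 1.14 between E17.5 and E10.5 DLK+ cells, rose by 0.98 between cholangiocytes and DLK+ cells at E17.5 and rose by 0.65 between TPPB and control explants. Changes below are relative to the TMM centre. Under library totals the E17.5 comparison had 6357 higher and 824 lower genes, against 2100 and 1894 with TMM, and the bulk one 2042 and 10162, against 4987 and 4964.

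In the bulk DLK+ cells, Ggt1, Car2, Aqp1 and Aqp8 rose between E10.5 and E18.5, Slc4a2 fell, and Sctr, Cftr, Slc5a1, Slc10a2 and Muc1 stayed at a few reads. The 5 genes that passed the filter on low counts all differed between stages (edgeR's quasi-likelihood test, Benjamini-Hochberg adjusted p below 0.05), as did 79.8% of all genes tested. Between E18.5 and E10.5 the same 5 were called, 4 higher and 1 lower, where 65.1% of all genes were called, 32.6% higher and 32.5% lower. Between E18.5 and E14.5, 3 of the 5 were called, against 43.7% of all genes.

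Aqp8 had the widest range. Its levels in the 2 libraries of each day were 0.125 and 0.103 CPM at E10.5, 0.500 and 0.712 (E11.5), 1.37 and 1.79 (E12.5), 2.71 and 4.90 (E13.5), 3.66 and 9.04 (E14.5), 27.2 and 80.0 (E15.5), 245 and 61.1 (E16.5), 570.0 and 441 (E17.5) and 637 and 396 (E18.5). Every library from E15.5 on lay above every earlier one. The log2 change from E10.5 to E18.5 was 12.06 ± 0.99 (SE, adjusted p = 6.83e-08) and that from E14.5 to E18.5 was 6.37 ± 0.70 (adjusted p = 4.94e-06).

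Ggt1 was read from E10.5 on and was highest on the last 2 days. It stood at 7.09 and 6.07 CPM at E10.5, 10.49 and 8.85 at E11.5, then 10.7 and 20.6 at E12.5, 25.5 and 34.3 at E13.5, 19.5 and 25.04 at E14.5, 32.5 and 51.9 at E15.5, 100.3 and 52.9 at E16.5, 336 and 210.1 at E17.5 and 247 and 213 at E18.5. The 4 libraries of E17.5 and E18.5 lay above all others. The change from E10.5 to E18.5 was 5.12 ± 0.40 on the log2 scale (adjusted p = 4.37e-08), of which 3.37 ± 0.37 came after E14.5 (adjusted p = 4.62e-06).

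Car2 was at 2.06 and 1.86 CPM at E10.5, reached 87.3 and 41.2 at E14.5 and ended at 66.1 and 61.4 at E18.5. Its levels at the 6 other days ran from 7.44 to 53.4 CPM. The E10.5 libraries were below all others (5.02 ± 0.47 against E18.5, adjusted p = 2.95e-07), and the change from E14.5 to E18.5 was not called. Aqp1 was at 0.219 and 0.241 CPM at E10.5, at 23.99 and 9.57 at E14.5 and at 4.89 and 18.1 at E18.5, a rise of 5.59 ± 0.84 from E10.5 (adjusted p = 3.8e-05) with no call after E14.5. For both genes, library 1 of E14.5 held the highest level of the series. Red-cell transcripts also rose: 8 of 9 erythroid markers tested were higher at E18.5 than at E10.5 (32.6% of all genes were). Their sum was 7.14 to 10.0 CPM at E10.5, 252 in library 1 and 120.3 in library 2 of E14.5, and 63.4 to 172 at E18.5, with no marker at 0. It was 96.3 to 129 CPM at E12.5 and 119.8 to 226.2 at E17.5. Aqp1 was at 1.69 to 3.04 and 3.03 to 4.64 CPM on those days, and Car2 at 15.8 to 21.3 and 34.6 to 53.4. From E14.5 to E18.5, 4 of 9 erythroid markers were lower and 0 higher, where 22.6% of all genes were lower. Endothelial markers rose as well, 5 of 6 tested, from a sum of 11.8 to 12.0 CPM at E10.5 to 74.4 to 135 at E18.5, and so did 5 of 6 macrophage markers (5.59 to 6.31 CPM, then 77.5 to 154). Their part in the rise of Aqp1 and Car2 was not tested. In a bulk library, more cells of a type and more RNA per cell cannot be told apart.

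Slc4a2 was the only one of the 5 tested members that fell. It stood at 93.8 and 81.3 CPM at E10.5, peaked at 132 and 157 at E13.5, was at 93.9 and 80.6 at E14.5 and ended at 63.5 and 54.3 at E18.5. Libraries of E17.5 and E18.5 lay below all earlier ones. The change from E10.5 was -0.57 ± 0.19 (adjusted p = 0.0153) and from E14.5 -0.57 ± 0.19 (adjusted p = 0.0248), and without library 2 of E18.5 neither was called (adjusted p = 0.109 and 0.149). The second was also lost without library 1 of E14.5 (adjusted p = 0.105). Scaled by library totals, the change from E10.5 was -2.0. Slc4a2 overlaps Fastk on the opposite strand, and whether the counting used strand is not given in the sources used here.

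The secretin receptor Sctr, which starts the secretory response, had 5 and 2 reads at E10.5 and 0 to 3 reads in each later library, with 0 in both libraries of E11.5, E15.5, E17.5 and E18.5. Cftr had 5 and 8 reads at E10.5, 22 over all 18 libraries and 0 at E13.5, E17.5 and E18.5. Muc1 had 10 and 8 reads at E10.5 and 0 to 5 in each later library. Each of these 3 genes had its highest total at E10.5. Of the 8 cholangiocyte markers, 4 fell and 2 rose from E10.5 to E18.5. Slc5a1 had 2 reads and Slc10a2 1 read in all. Per length, the order of the 5 tested members at E10.5 was Slc4a2 (78.7 ± 4.71 TPM, SD, n = 2), Ggt1 (11.6 ± 0.797), Car2 (4.21 ± 0.128), then Aqp1 (0.337 ± 0.0375) and Aqp8 (0.294 ± 0.0271), whose values overlapped. Muc1, which did not pass the filter, was at 0.503 ± 0.0233 TPM on that day. By E18.5 the order of the 5 was Aqp8 (376.5 ± 89.3 TPM), Ggt1 (116 ± 0.988), Car2 (39.1 ± 1.76), Slc4a2 (15.1 ± 0.197) and Aqp1 (5.01 ± 4.39), with no overlap between neighbours.

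**Figure D1:**
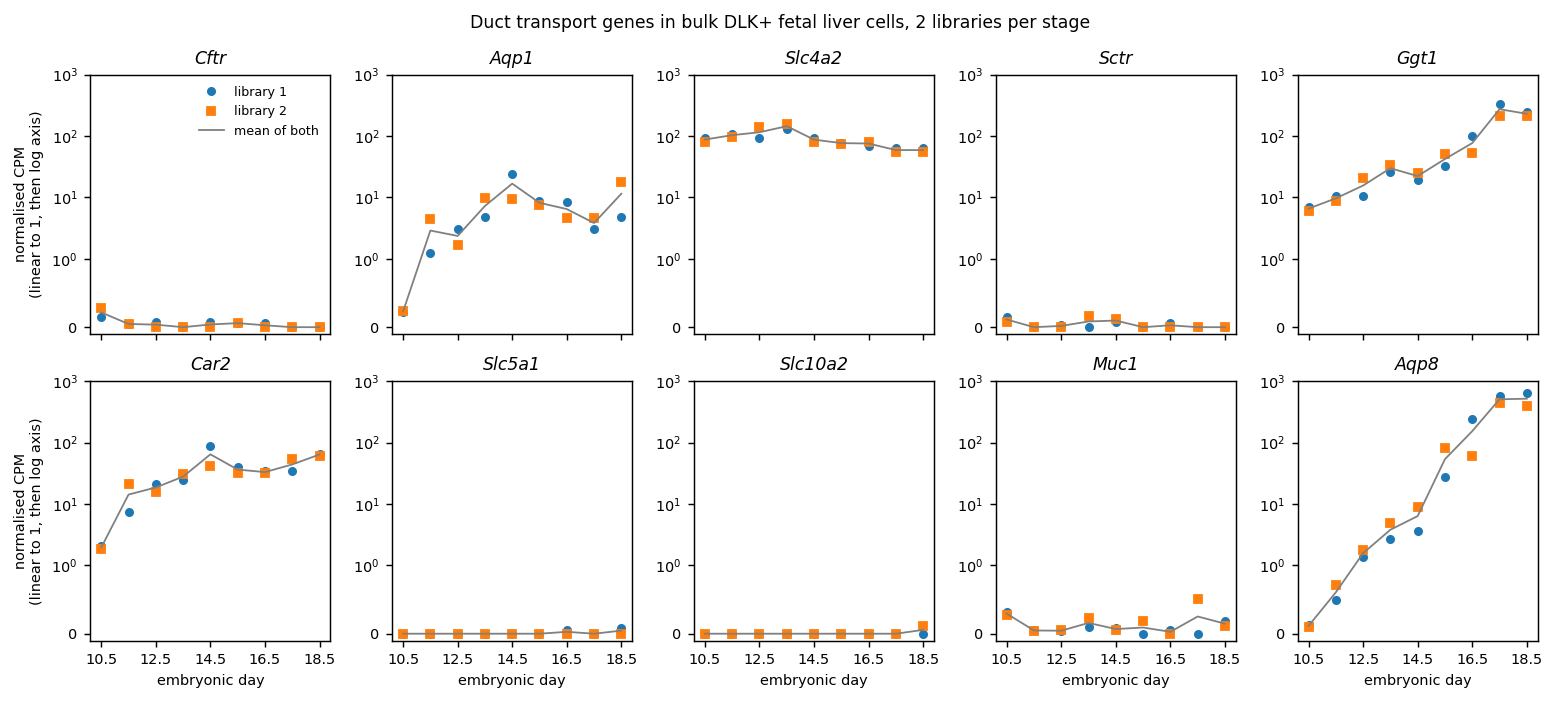
Normalised CPM (symmetric log axis) of each of the 10 genes in bulk DLK+ cells against embryonic day, with a point per library and a line through the mean of 2 libraries. Aqp8 climbs from 0.125 and 0.103 CPM at E10.5 to 637 and 396 at E18.5, Ggt1 climbs from 7.09 and 6.07 to 247 and 213 CPM, and Slc4a2 ends below its E10.5 level.

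Single cells separated the genes by cell type. On average over the days E14.5, E15.5 and E17.5, annotated cholangiocytes (9 sums) had more Sctr and less Car2 and Aqp8 than DLK+ gate hepatoblasts/hepatocytes (10 sums), while Slc4a2 and Ggt1 did not pass the test. Of the 10 genes, 7 passed the filter in embryo cells and 3 of these were called in either direction, where 35.0% of all genes were called (3199 higher and 2696 lower, or 6517 and 1394 under library totals). By day, 0 of 7 were called at E14.5 (edgeR, 4 at an unadjusted p under 0.05, 0 with DESeq2), 2 at E15.5 and 5 at E17.5, against 11.7%, 13.8% and 23.7% of all genes. Slc5a1 and Muc1 had no read on either side at E14.5 and E15.5, so they could not be called on those days. Cftr, Aqp1 and Slc10a2 did not pass the filter in embryo cells. These comparisons use the same cells in part, since those of single days are inside the average.

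Sctr, the secretin receptor, was read mostly in cholangiocytes. It had 36 reads in 1 of 2 cholangiocytes at E11.5, none in the 3 of E12.5 and 118 reads over 4 of 10 cholangiocytes at E13.5. At E14.5 its levels in the 3 cholangiocyte sums were 0, 0 and 5.34 CPM, and the 64 reads behind the last came from 1 cell of 17. At E15.5 they were 2.64, 5.65 and 2.48 CPM, from 10 of 36 cells (27.8%, exact 95% interval 14.2 to 45.2%). At E17.5 they were 5.87, 9.71 and 20.6 CPM, from 14 of 34 cells (41.2%, 24.6 to 59.3%), and all 14 had at least 5 reads. All 6 sums of E15.5 and E17.5 had the transcript, and the DLK+ sums of those days had 0 reads. In all, 30 of 102 cholangiocytes and 3 of 345 hepatoblasts/hepatocytes had a read, the latter with 1 read each. The median depth at E17.5 was 1013766 reads per cholangiocyte and 1168273 per DLK+ cell. EpCAM+ gate hepatoblasts of E11.5 to E14.5 had Sctr in 0 of 91 cells, which allows up to 3.30% of cells with a read (3 cells of the total). Intervals and limits cover counting error only.

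Against the DLK+ cells, Sctr was at least 13.6-fold higher in cholangiocytes at E15.5 (adjusted p = 0.0159) and at least 19.9-fold higher at E17.5 (adjusted p = 0.00239), each bound taking 3 reads per DLK+ sum. Without cholangiocyte set 4 the second bound was 12.9-fold. Over the 3 days the means were 5.80 and 0.00659 CPM (adjusted p = 5.54e-05, with 1 read in all 10 DLK+ sums). DESeq2 did not call these 3 comparisons (adjusted p = 0.365, 0.229 and 0.0534). The E15.5 call was also lost without DLK+ set 1, 3 or 4 (adjusted p = 0.0576, 0.0525 and 0.0655), and the average without E14.5 cholangiocyte set 3 (adjusted p = 1). Within the EpCAM+ gate at E14.5, cholangiocytes and hepatoblasts differed in 1 of 7 members, against 11.1% of all genes. That member was Sctr (at least 5.46-fold higher, adjusted p = 0.0418), whose reads all lay in the 1 cell named above. Without that cell's set (set 3) both sides were at 0, and without hepatoblast set 1, 2 or 3 the adjusted p was 0.105, 0.101 or 0.125. Slc5a1 had no read on either side within this gate and Muc1 a single read, so neither could be called. In the embryo fit, Sctr passed the filter on low counts only through cholangiocyte sums. Its p-values are therefore no support beyond the counts themselves.

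Cftr, the chloride channel, had no read in any of the 447 embryo cells. Taking 3 cells of the total as the limit, a count of 0 allows up to 0.671% of embryo cells and up to 2.94% of the 102 cholangiocytes with a read. Cftr overlaps the antisense gene Gm15592.

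Slc4a2, the chloride-bicarbonate exchanger, was the most widely shared member, with reads in 402 of 447 embryo cells. Cholangiocyte and DLK+ sums overlapped at E14.5 (36.9, 14.7 and 19.1 against 43.1, 20.8 and 21.4 CPM) and at E15.5 (31.5, 27.3 and 34.8 against 24.97, 15.1 and 36.8 CPM). At E17.5 they separated, with 25.3, 34.8 and 53.7 CPM in cholangiocytes and 21.5, 8.46, 11.9 and 22.8 CPM in DLK+ cells. The E17.5 difference was 1.23 ± 0.37 on the log2 scale (adjusted p = 0.0152). It was not called without DLK+ set 2 or 3 or cholangiocyte set 4 (adjusted p = 0.0532, 0.0582 and 0.133), and it was 2.20 under library totals. In DLK+ cells Slc4a2 fell from 25.9, 43.2 and 30.0 CPM at E10.5 to the E17.5 values above (-1.03 ± 0.37, adjusted p = 0.0361), which is the direction of the bulk libraries. This fall was not called without E10.5 set 2 or 3 or E17.5 set 2 or 3 (adjusted p = 0.177, 0.0563, 0.0903 and 0.101). In cholangiocytes the change from E14.5 to E17.5 was 0.69 ± 0.40 and not called.

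Car2, the carbonic anhydrase, was higher in the hepatocyte lineage than in the ducts. At E17.5 it was at 113, 281, 71.1 and 69.0 CPM in DLK+ cells and at 26.7, 13.97 and 30.5 CPM in cholangiocytes, with no overlap. The share of cells with a read was 97.1% and 64.7%. At E15.5 DLK+ cells had 16.97, 34.9 and 25.4 CPM and cholangiocytes 2.98, 2.58 and 11.52 CPM, a difference that edgeR did not call (adjusted p = 0.0971). At E14.5 the types overlapped, with 8.93 to 33.7 CPM in DLK+ cells and 0 to 14.2 CPM in cholangiocytes (edgeR, adjusted p = 0.184, not called). The average difference was -2.16 ± 0.50 (adjusted p = 0.000791) and that at E17.5 -2.49 ± 0.84 (adjusted p = 0.0287). The E17.5 call did not hold without DLK+ set 2 (adjusted p = 0.143), without cholangiocyte set 1, 3 or 4 (0.0712, 0.112 and 0.0576), or under library totals (-1.49, adjusted p = 0.136). In DLK+ cells Car2 rose from 4.22, 1.75 and 2.62 CPM at E10.5 (5.54 ± 0.99, adjusted p = 4.34e-05). The erythroid marker sum in single DLK+ cells of E17.5 was 2.75 to 11.02 CPM, against 119.8 to 226.2 CPM in bulk on the same day. Cholangiocytes of E17.5 had an erythroid sum of 0.237 to 3.10 CPM.

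Aqp8, the hepatocyte water channel, was high in DLK+ cells and low in cholangiocytes. DLK+ sums held 1 read in all at E10.5, 3.83, 16.8 and 31.6 CPM at E14.5, 49.4, 17.55 and 125 at E15.5 and 320.4, 312, 552 and 715 at E17.5. Cholangiocytes held 2.78, 0.155 and 5.42 CPM at E14.5, 0, 0.0991 and 2.09 at E15.5 and 1.45, 6.39 and 1.013 at E17.5. The groups did not overlap at E15.5 and E17.5. The share of DLK+ cells with a read went from 1.85% at E10.5 to 37.0% at E14.5, 59.0% at E15.5 and 97.1% at E17.5, against 17.6%, 8.33% and 14.7% of cholangiocytes on the last 3 of these days. The difference was -6.65 ± 1.48 at E15.5 (adjusted p = 0.00164), -7.60 ± 1.46 at E17.5 (adjusted p = 0.000167) and -5.60 ± 0.80 on average (adjusted p = 9.89e-07). In DLK+ cells the increase from E10.5 to E17.5 was called (adjusted p = 1.85e-06). EpCAM+ gate hepatoblasts of E14.5 had 4.53, 0 and 38.3 CPM, a spread as wide as that of the DLK+ gate.

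Aqp1, the water channel of mature ducts, was all but absent from single embryo cells. It had 10 reads in 1 cholangiocyte of E17.5, 1 read in cholangiocytes of E14.5 and 3 reads in DLK+ cells of E17.5. The bulk DLK+ libraries of E14.5 held 610 and 165 reads of Aqp1 while the 27 single DLK+ cells of that day held 0.

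Ggt1, which starts the breakdown of biliary glutathione, was read in both lineages and rose in both. In DLK+ cells it went from 9.18, 12.3 and 5.64 CPM at E10.5 to 38.7, 60.8 and 52.5 at E14.5, 45.0, 16.3 and 73.3 at E15.5 and 239, 293, 247 and 240.2 at E17.5 (E17.5 against E10.5, 4.81 ± 0.53, adjusted p = 1.12e-08). In cholangiocytes it went from 37.2, 10.2 and 24.7 CPM at E14.5 to 66.4, 90.6 and 90.4 at E15.5 and 89.9, 101 and 84.2 at E17.5. The cholangiocyte values of E14.5 lay below all later ones (E17.5 against E14.5, 1.93 ± 0.48, adjusted p = 0.0185). That call was lost without E14.5 set 2 or 3 or E17.5 set 3 (adjusted p = 0.114, 0.0535 and 0.0551). The transcript was in 34 of 34 cholangiocytes of E17.5. At E15.5 the types overlapped, and at E17.5 cholangiocytes were lower (-1.47 ± 0.45, adjusted p = 0.0145). This difference was not called without cholangiocyte set 4 (adjusted p = 0.0547) or under library totals (-0.47, adjusted p = 0.376), and the average over 3 days was -0.56 ± 0.26 with TMM and 0.01 with library totals, neither called.

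Between E17.5 and E14.5 cholangiocytes, 1 of 7 members was called (Ggt1), against 3.28% of all genes. In DLK+ cells between E17.5 and E10.5, 4 of 7 were called, against 29.5% of all genes. A test of whether the gap between cholangiocytes and DLK+ cells changed from E14.5 to E17.5 called 0 of 7 members (edgeR, 2 at an unadjusted p under 0.05, 0 with DESeq2), against 3.21% of all genes. Those 2 were Slc4a2 (1.51 ± 0.55, adjusted p = 0.148) and Aqp8 (-5.03 ± 1.73, adjusted p = 0.118), and Slc4a2 passed under library totals (2.25, adjusted p = 0.0102) and without E14.5 cholangiocyte set 1 (adjusted p = 0.0472). Slc5a1 and Muc1 had no read at E14.5 on either side, so this test of the gap could not call them. EpCAM+ and DLK+ gate hepatoblasts of the same days differed in 0 of 7 members (edgeR, 0 at an unadjusted p under 0.05, 0 with DESeq2), against 0.0238% of all genes. Slc5a1 had no read in these hepatoblasts, and Sctr and Muc1 had at most a single read per cell. These genes could not be called between gates.

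The remaining members were rare in the embryo. Slc5a1, the glucose cotransporter, had 57 reads, all in 1 cholangiocyte of E17.5. Slc10a2, the bile acid transporter, had 1 read in each of 29 embryo cells, 25 of them hepatoblasts/hepatocytes, and no cell had 5. Muc1 had 107 reads in 1 cholangiocyte of E13.5, 28 in 1 cholangiocyte of E17.5 and 1 read in each of 2 hepatoblasts/hepatocytes. Per length, cholangiocytes of E17.5 had most Ggt1 (89.1 ± 11.4 TPM, SD, n = 3), then Car2 (27.7 ± 9.69), Slc4a2 (18.8 ± 7.49) and Sctr (12.7 ± 8.14), neighbours within their spread, then Aqp8 (4.27 ± 4.47). DLK+ cells of that day had Aqp8 (316.5 ± 138 TPM, n = 4), Ggt1 (115 ± 7.80), Car2 (72.2 ± 51.5) and Slc4a2 (3.77 ± 1.75).

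**Figure D2:**
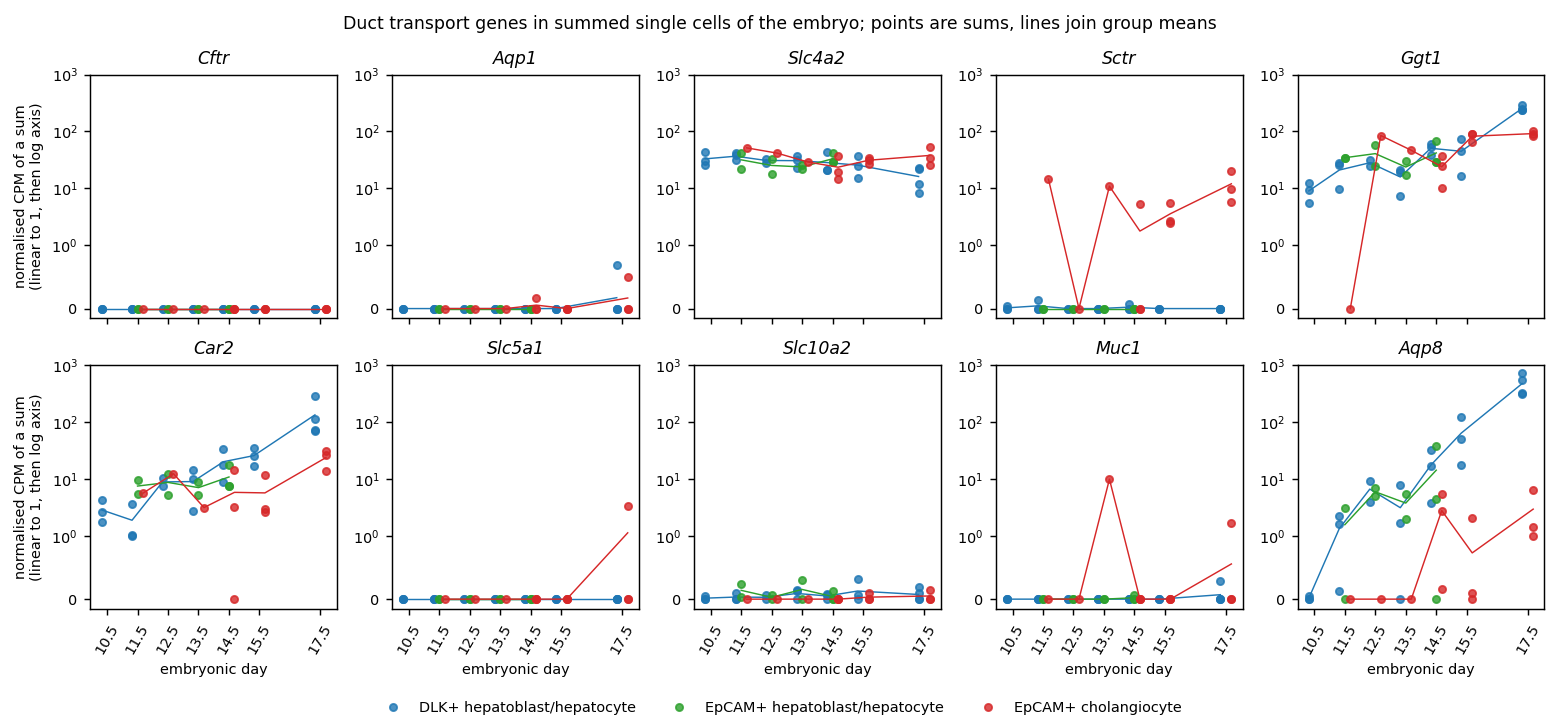
Normalised CPM (symmetric log axis) of the 10 genes in summed embryo cells against embryonic day, in blue for DLK+ gate and green for EpCAM+ gate hepatoblasts/hepatocytes and in red for EpCAM+ gate cholangiocytes, with a point per sum and a line through group means. Sctr is above 1 CPM in red points alone, Aqp8 and Car2 separate at E15.5 and E17.5 with blue above red, and Ggt1 climbs in both lineages.

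**Figure D3:**
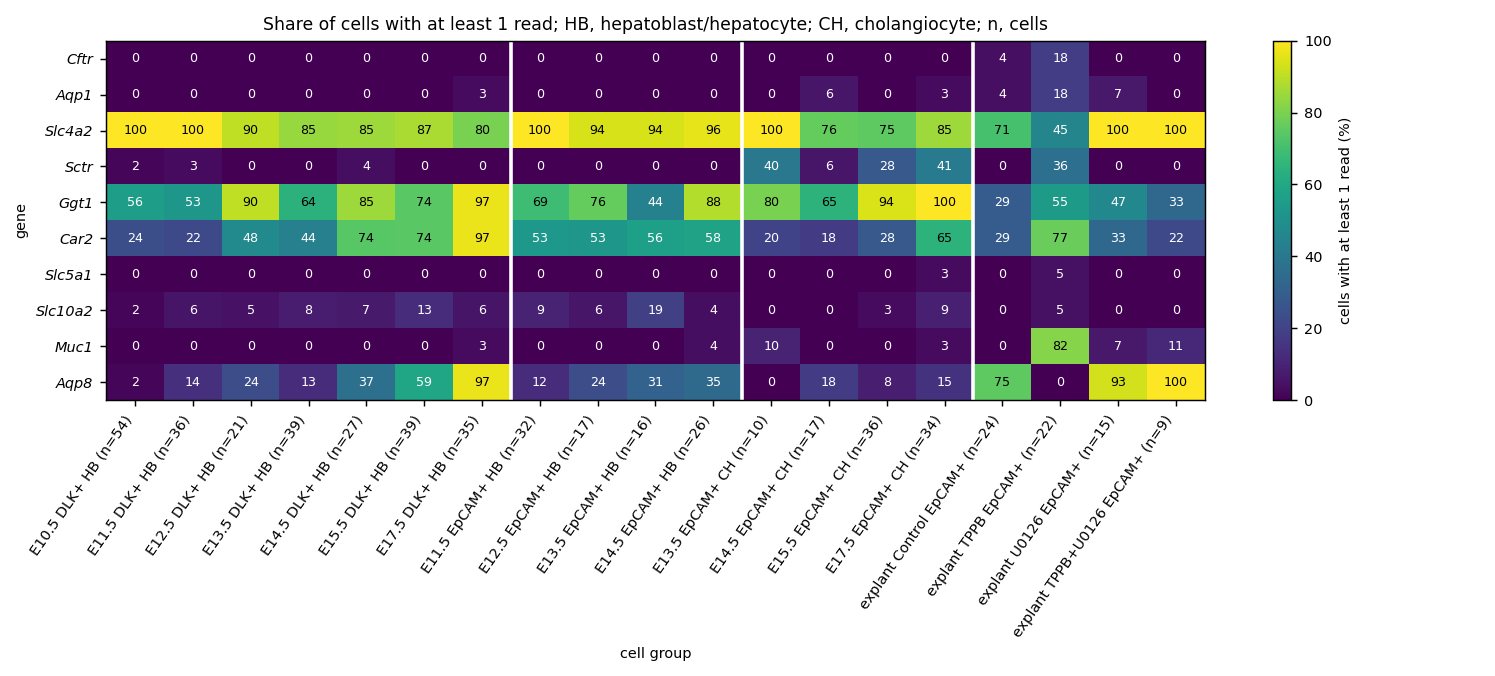
Share of cells (percent, colour) with at least 1 read of each of the 10 genes (rows) in 19 groups of embryo and EpCAM+ explant cells (columns). Embryo groups are by day, gate and annotated type, and explant groups by treatment. HB is hepatoblast/hepatocyte and CH cholangiocyte. Slc4a2 and Ggt1 are read in most cells of both E17.5 groups, Sctr in 41.2% of E17.5 cholangiocytes and Aqp8 in 97.1% of E17.5 DLK+ cells. The Cftr row is 0 in every embryo group and above 0 in control and TPPB explant cells.

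Some genes of the secretory chain were read in the same cells. Embryo cells had reads for 0 to 5 of the 10 genes with a median of 3, and a median of 2 when 5 reads were asked for. Medians for cholangiocytes were 2, 2 and 3 at E14.5, E15.5 and E17.5, and 3, 3 and 4 for DLK+ cells. Slc4a2 and Car2 were read together in 194 of 447 embryo cells, among them 32 of 102 cholangiocytes and 18 of the 34 at E17.5. Of the 30 cholangiocytes with Sctr, 26 also had Slc4a2, as did 13 of the 14 at E17.5. Slc4a2 was read in 402 of all 447 embryo cells, a similar share, so this overlap is no sign that the genes go together. Sctr and Aqp8 were in no cholangiocyte together, but few cholangiocytes had Aqp8.

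**Figure D4:**
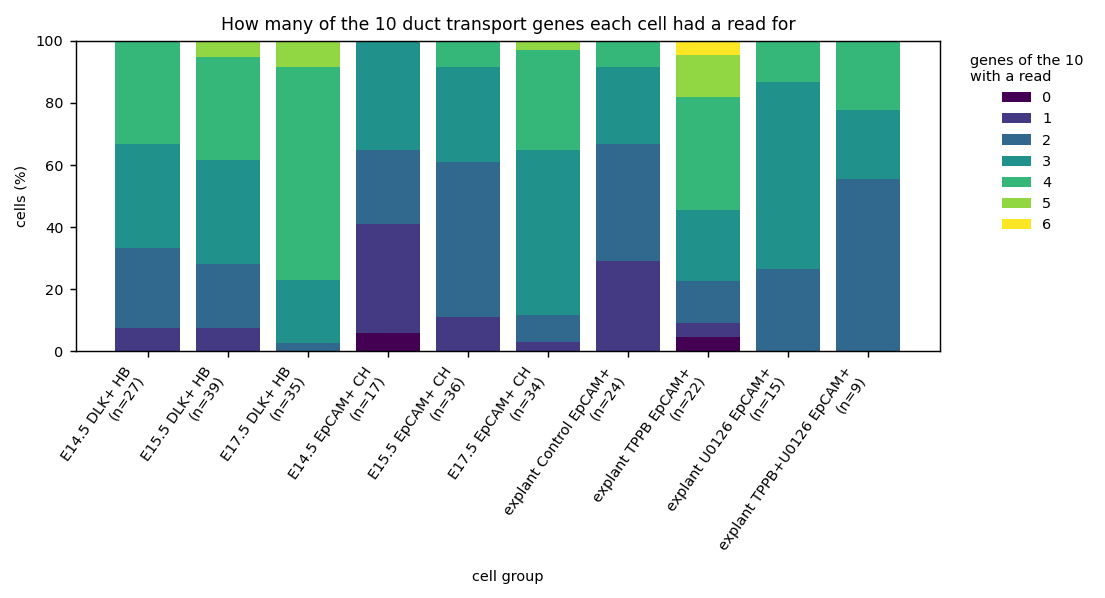
Percent of cells by the number of the 10 genes with at least 1 read, as stacked bars for 10 groups of embryo and explant cells (HB is hepatoblast/hepatocyte, CH cholangiocyte). The median is 3 genes in E17.5 cholangiocytes, 4 in E17.5 DLK+ cells and 4 in TPPB-treated EpCAM+ explant cells, where the highest number is 6.

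In the explants, EpCAM+ cells given TPPB alone lacked Aqp8, and most of them carried Muc1. Fewer carried Sctr, Cftr or Aqp1, and Cftr was also read in a control cell. Of these members only Aqp8 differed from control by the test. There were 24 control cells in 4 sums, 22 TPPB cells in 2, 15 U0126 cells in 2 and 9 cells with both agents in 2. The labels use other wording for sets 3 and 4 than for sets 1 and 2, so the fit carries that round as a term, and TPPB-alone cells are in the first round. Cells with U0126, alone or with TPPB, are all in the second round. A difference between these and TPPB-alone cells cannot be told apart from the round. The authors annotate 66 of these 70 cells as cholangiocytes. The control cells carried much hepatic RNA, with 65031 to 203230 CPM over 7 hepatic markers against 468 to 1807 with TPPB. Cholangiocyte markers summed to 288 to 7269 CPM in control cells and 11552 to 12564 with TPPB, and 5 of 7 hepatic and 0 of 8 cholangiocyte markers passed the test. Their part in the differences below was not tested. The TPPB and U0126 comparisons share the control sums.

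Aqp8 was at 255, 206, 221 and 726 CPM in the control sums, and the TPPB sums had 0 reads in 22 cells. It was at least 1958-fold lower with TPPB (adjusted p = 0.000813), with 3 reads per TPPB sum as the bound, and at least 1264-fold without control set 4. With U0126 it was at 108 and 194 CPM, below all controls but not called (-1.64 ± 0.62, adjusted p = 1), and with both agents at 359 and 168 CPM. Aqp8 was the 1 member of 8 called with TPPB, where 1.97% of all genes were called, 0.0800% higher and 1.89% lower. The U0126 comparison called 0 of 8 members (edgeR, 2 at an unadjusted p under 0.05, 0 with DESeq2) and 0.00% of all genes, but 396 genes without control set 3, again with 0 members. Adding TPPB to U0126 called 0 of 8 (edgeR, 1 at an unadjusted p under 0.05, 0 with DESeq2) and 0.00% of all genes. Over all genes, 288 and 249 had an unadjusted p under 0.05 in these, and DESeq2 called 33 and 30. Sctr had no read on either side in both of these comparisons, and Cftr none in the second, so they could not be called there.

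Muc1, the apical mucin, had 0 reads in the 24 control cells and 1330 and 1856 reads in the TPPB sums, which is 89.9 and 97.0 CPM from 18 of 22 cells. The level was at least 124-fold higher with TPPB (219-fold without control set 4), but the adjusted p was 0.130. It passed without the filter on low counts (adjusted p = 2.88e-08) and without the round as a term (adjusted p = 0.0296). With U0126, 1 of 15 cells had 108 reads. That cell also had 1907 reads of Krt19 and 23 of Alb. With both agents 1 read was found in 9 cells.

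Sctr had 0 reads in control, U0126 and double-treated EpCAM+ cells and 43 and 256 reads (2.90 and 13.4 CPM) with TPPB, from 8 of 22 cells. The TPPB level was at least 10.8-fold higher and not called (adjusted p = 0.299). The bound was 17.8-fold without TPPB set 1, 3.86-fold without TPPB set 2 and 19.1-fold without control set 4. A single TPPB cell of set 2 gave 167 of these reads and had 13303 CPM of erythroid markers. Car2 was at 7.60, 12.2, 3.73 and 27.7 CPM in controls, 295 and 104 with TPPB, 0 and 2.84 with U0126 and 0 and 4.17 with both. Both TPPB sums lay above every other sum, but the difference was not called (4.32 ± 1.66, adjusted p = 0.294). Without the filter on low counts it was (adjusted p = 2.37e-05). Among the 22 TPPB cells, Car2 had a median of 65.4 TPM and a highest value of 2627 TPM. A single cell thus weighs heavily in the TPPB sum that holds it. The erythroid sum in those TPPB sums was 12.0 and 729 CPM, the lower being that of the sum with more Car2, and 10.96 to 48.98 CPM in controls.

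Cftr appeared in 4 of 22 TPPB cells, with 125 and 36 reads in the 2 sums (8.44 and 1.88 CPM), and in 1 of 24 control cells, with 41 reads (4.40 CPM in set 2). That control cell had 505 reads of Krt19 and 5742 of Alb. U0126 and double-treated cells had no Cftr read. The difference between TPPB and control was 1.20 ± 2.38 (adjusted p = 0.952). Aqp1 had 32 and 38 reads with TPPB (2.16 and 1.99 CPM), from 4 of 22 cells, 1 read in controls, 2 reads with U0126 and 0 with both, and the difference from control was not called (adjusted p = 0.286). These are low levels: per length, Cftr and Aqp1 reached 2.04 ± 1.74 and 2.07 ± 0.0331 TPM with TPPB, against 285 ± 176 for Car2, 109.5 ± 14.2 for Muc1, 16.9 ± 7.91 for Ggt1, 10.98 ± 10.46 for Sctr and 7.14 ± 2.14 for Slc4a2 (n = 2).

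Slc4a2 and Ggt1, the members shared by both lineages, were in all treatments. Slc4a2 was at 21.8, 8.06, 11.05 and 42.7 CPM in controls and 14.9 and 8.67 with TPPB (-0.34 ± 0.90, adjusted p = 0.97), inside the control range, and its sums with U0126 or both agents ran from 16.3 to 37.9 CPM. Ggt1 was at 8.34, 9.99, 6.07 and 0 CPM in controls and 19.7 and 8.88 with TPPB (0.64 ± 1.86, adjusted p = 0.973). Slc5a1 and Slc10a2 were each read in 1 cell of TPPB set 2, with 55 and 36 reads, and in no other EpCAM+ explant cell. Cftr, Slc4a2 and Aqp1 were together in 1 TPPB cell, which had 6 of the 10 genes. Muc1 was read with Sctr in 8 and with Cftr in 4 TPPB cells, and Sctr with Cftr in none. Most TPPB cells had Muc1, so these overlaps are no sign that the genes go together. Sctr and Cftr were each read in a minority, so their lack of overlap is no sign that they exclude each other.

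**Figure D5:**
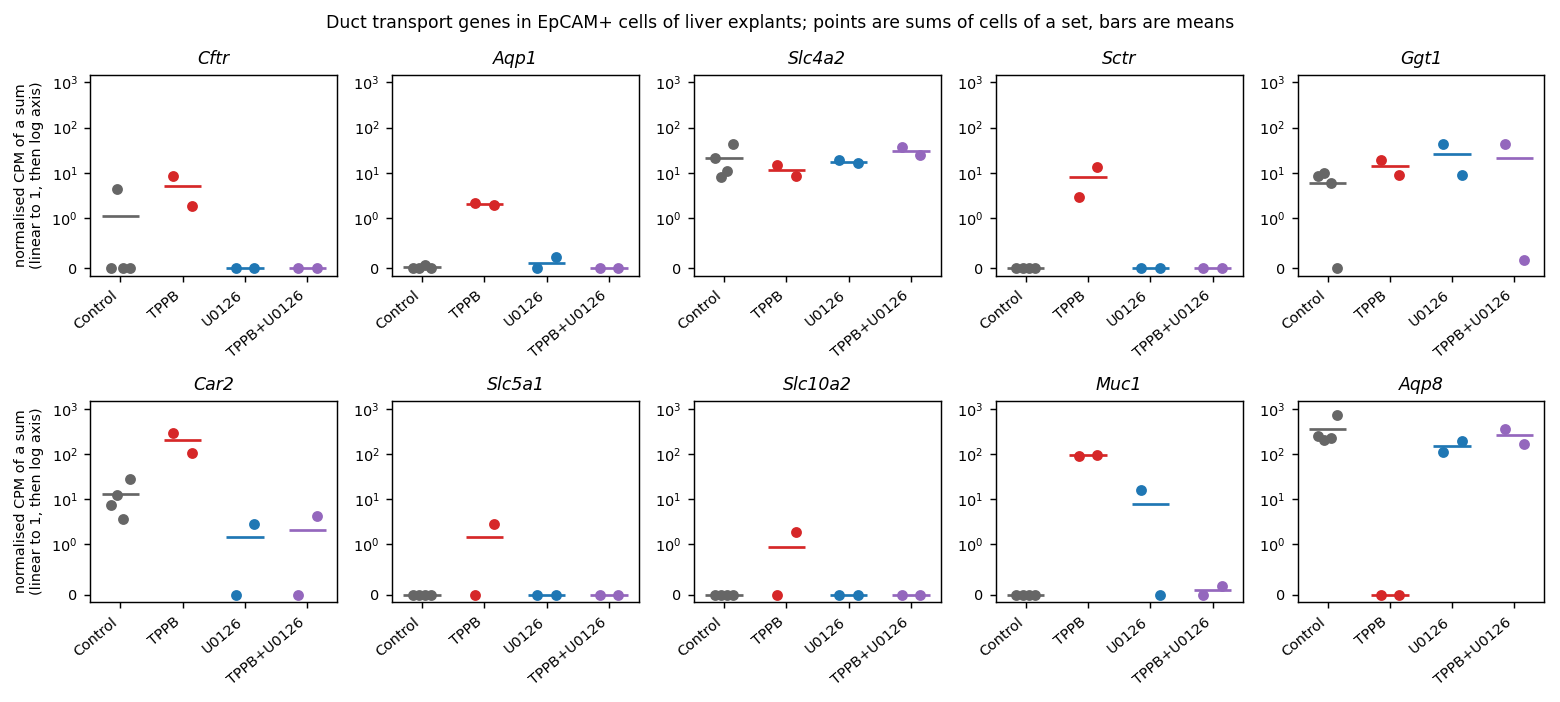
Normalised CPM (symmetric log axis) of the 10 genes in summed EpCAM+ explant cells under 4 treatments, with a point per sum and a bar for the group mean. Aqp8 is at 0 with TPPB alone, and Muc1, Sctr and Aqp1 have their highest sums there. TPPB-alone sums are from sets 1 and 2, and all sums with U0126 are from sets 3 and 4.

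The other genes of these functions came from lists of the same pathways. Counts for cholangiocytes against DLK+ cells stand beside 35.0% of all genes called, which is 3199 higher and 2696 lower of 16838 tested. For chloride and bicarbonate secretion, 4 of 12 genes tested were higher and 2 lower in cholangiocytes than in DLK+ cells on average, with a median log2 difference of 0.68 against 0.16 for all genes. The calcium-activated chloride channel Ano1 was at 26.8 ± 13.6, 14.2 ± 3.25 and 10.1 ± 8.79 CPM in cholangiocytes at E14.5, E15.5 and E17.5 (SD, n = 3 each) and had 0 reads in all 10 DLK+ sums, at least 38.3-fold (adjusted p = 1.58e-06). Ezr, which anchors membrane proteins at the apical face, was higher by 1.58 ± 0.24 on the log2 scale, and Atp1b1, a subunit of the sodium pump, by 1.17 ± 0.12. Slc26a6, an anion exchanger, was lower (-3.25 ± 0.55), as was Slc9a3r1, an apical scaffold (-0.54 ± 0.09, but 0.01 under library totals). With TPPB, Ano1 was also called (0.0183 ± 0.0366 CPM in controls, 50.5 ± 22.5 with TPPB, adjusted p = 0.0459). It was 1 of 11 such genes called there, against 1.97% of all genes.

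Among receptors and second messengers of secretion, 4 of 13 were higher and 3 lower. The nucleotide receptor P2ry1 (7.43 ± 1.49) and the somatostatin receptor Sstr2 (1.78 ± 0.32) were higher in cholangiocytes, and the glucagon receptor Gcgr (-3.05 ± 0.35) and the nucleotide receptor P2ry2 (-5.17 ± 1.29) were lower. The list's median was 1.78, or 0.03 with the genes lacking reads on a side set at their bound. Gcgr, at 34.6 ± 12.7 CPM in control explants (n = 4), had 0 reads with TPPB and was at least 192-fold lower (adjusted p = 0.00121), the only 1 of 9 called there, where 1.97% of all genes were called.

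Absorption genes were 1 higher and 3 lower of 12 (median -0.32), a share near the 35.0% of all genes. The export pump Abcc3 was higher (6.68 ± 1.57), and the peptidase Anpep (-1.40 ± 0.19), the glucose transporter Slc2a2 (-0.68 ± 0.15) and the drug pump Abcb1a (-1.98 ± 0.71) were lower. No aquaporin was higher in cholangiocytes and 4 of 4 tested were lower (median -3.08): Aqp11 (-2.59 ± 0.16), Aqp9 (-3.91 ± 0.61), Aqp3 (-3.57 ± 1.08) and Aqp7 (-0.94 ± 0.35). Under library totals Aqp7 (-0.36) and, among the absorption genes, Slc2a2 (-0.12) and Abcb1a (-1.46) were no longer called. Aqp8 lay on the same side as these 4. Of 11 other carbonic anhydrases, 0 were higher and 2 lower (median -0.41), namely Car3 (-7.49 ± 0.74) and Car5a (-4.63 ± 0.76). Of 8 mucins and related genes, 0 were higher and 2 lower, Tff3 and Pigr, with a median of 0.20, or 0.00 with genes at their bound. In TPPB explants none of the 9 absorption genes, 3 aquaporins, 2 mucins or 7 carbonic anhydrases tested was called. In bulk, between E10.5 and E18.5, Aqp9 (7.02 ± 0.29) and Aqp11 (3.24 ± 0.31) rose along with Aqp8, and 6 of 12 carbonic anhydrases rose and 4 fell, where 32.6% of all genes rose and 32.5% fell.

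Genes with the most similar pattern were ranked by Pearson's r of log2(CPM + 1) over the means of 17 embryo groups, as a description, since groups share gates, days and sets. Among the nearest to Aqp8 were BC004004 and Slco1b2 (r = 0.94 each), to Car2 Acadm (0.95), Mpc1 (0.93) and Ccs (0.92), and to Ggt1 Farp2 (0.92), Arhgap5 (0.91) and Oplah (0.91). Sctr was nearest to Pde8b (0.96), Mat2b (0.94) and Pdlim1 (0.92), and Slc4a2 to Smarca1 (0.83), Cc2d1b (0.82) and Cdc42se1 (0.81). For Muc1 the ranking rests on 1 cell of E13.5 and is not given.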

How the data were processed

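The authors deposited read counts per gene, without normalization, for 18 bulk libraries and 529 Smart-seq2 cells. Per the submitters' processing notes the tools named are TopHat2 2.1.0, Bowtie2 and HTSeq 0.6.0 on GRCm38/mm10. The strand setting is not given in the sources used here, and the single-cell protocol has no molecular identifiers. The gene length is a further value deposited by the authors and was used for TPM. Spike-in RNAs (92) were left out. The 10 genes, the gene lists and the tests were chosen with earlier results of these data known. All members are named. Of each list, up to 4 genes called in the average comparison with the smallest p are named, and up to 3 called in an explant comparison. A few genes that these rules select are not reported here.

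The tests used edgeR 4.0.16 under R 4.3.3 (TMM, filterByExpr with a minimum count of 10, glmQLFit and glmQLFTest), and Benjamini-Hochberg adjusted p-values under 0.05 were called. Fits covered all bulk libraries by stage, all embryo sums by group, and the EpCAM+ explant sums by treatment and round. Changes are log2 ± SE, and SE is the change over the root of its F statistic. Where a side had 0 reads, a bound takes 3 reads per library. Shares above 0 have exact (Clopper-Pearson) 95% intervals, and the limit beside a share of 0 is 3 counts of the total. Alternatives were DESeq2 1.42.0, RLE scaling, no filter, a replicate block, other minimum cells per sum and leaving out replicates, and, chosen after seeing the data, library totals in place of TMM. On simulated data, 16-fold changes were recovered for 92.0% of 100 genes in bulk (E18.5 against E10.5, 15275 genes), 64.0% in embryo cells (E17.5, 16838 genes) and 44.0% with TPPB (13749 genes), and 4-fold changes for 80.0%, 33.0% and 4.00%. Unchanged genes made up 16 of 188, 8 of 105 and 6 of 54 calls. Counts were simulated per library or sum, with a spread set by level, so genes whose reads come from 1 cell are not covered. Promoters and gene positions are on GRCm38.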

Additional observations from a re-analysis of the deposited data

Results flagged for a closer look

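A total of 3 values stood far from the other sums of their group, by Dixon's 95% criterion for 4 values. If values are normally distributed, chance alone meets it in about 1 of 20 groups. Ggt1 in E17.5 DLK+ cells was at 293 CPM in set 2, with the other 3 sums between 239 and 247 CPM. Aqp8 in control explant EpCAM+ cells was at 726 CPM in set 4, a sum of 2 cells, with the others between 206 and 255 CPM. Cftr in control explant EpCAM+ cells was at 4.40 CPM in set 2, all from 1 cell, with the others at 0. With the other sums at 0, any level above 0 meets the criterion.

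The DLK+ cells of the explants entered no comparison. Car2 was at 150.5 CPM in the 6 TPPB-treated ones and at 16.3 CPM in the larger control sum of 5 cells. Aqp1 was at 2.29 CPM in the TPPB-treated ones, from 16 reads in 1 cell, whose erythroid markers summed to 15198 CPM. Muc1 had 0 reads in those 6 cells, and Aqp8 was at 276 CPM.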

How the results depend on the processing

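Over the members, 668 alternative values kept direction and side of the threshold, 41 lost the call, 15 gained it and 3 turned direction. Those 3 were Ggt1 in the average of cholangiocytes against DLK+ cells (0.014 under library totals), Sctr at E14.5 without cholangiocyte set 3 (-1.94 to 7.46 leaving out each set) and Muc1 with TPPB added to U0126, without U0126 set 3 (-9.18 to 3.01 leaving out each set). The number of members called changed under these settings. At E14.5 it was 1 without the cell whose labels carry the explant protocol. At E15.5 it was 1 with the replicate block. At E17.5 it was 2 with the replicate block and 3 under library totals. For the change in the gap from E14.5 to E17.5 it was 1 under library totals. Within the EpCAM+ gate at E14.5 it was 0 with DESeq2, with the replicate block and with sums of at least 1 cell. With TPPB it was 3 without the filter and 2 without the round, with U0126 2 and with both agents 1 without the filter. At 5 reads per cell, Slc10a2 was in 0% of E14.5 to E17.5 cholangiocytes and the median number of members per cell was 2. Leaving out replicates, the members called numbered 5 to 5 for all bulk stages, 4 to 5 for E18.5 against E10.5, 2 to 3 against E14.5, 2 to 4 for the average, 0 to 1 at E14.5, 1 to 3 at E15.5, 2 to 5 at E17.5, 0 to 2 for E17.5 against E14.5 cholangiocytes, 3 to 4 for DLK+ cells, 0 to 1 for the gap, 0 to 0 between gates, 0 to 1 within the EpCAM+ gate, 1 to 1 with TPPB and 0 to 0 with U0126 or both agents.

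By setting, counts over all genes that moved by more than 1.5 times were 10576, 7181 and 8012 under library totals (bulk E18.5 against E14.5, E17.5, DLK+ cells), 1096 with DESeq2 and 240 with sums of at least 1 cell (E17.5 against E14.5 cholangiocytes), 1020, 283 and 1824 (the gap, DESeq2, at least 1 cell, library totals), 1296 and 1205 with at least 1 cell (E14.5, EpCAM+ gate), 1264 with the block (E15.5), 70, 15 and 2 (between gates, DESeq2, no filter, at least 1 cell) and 1090, 856 and 519 (TPPB, DESeq2, no filter, no round), without the filter 86 with U0126 and 52 with both, with DESeq2 33 and 30, and 1 with U0126 without the round. Leaving out 1 sum, they were 351 and 364 (E17.5 against E14.5 cholangiocytes, without E17.5 set 3 or 4), 346 (the gap, without E14.5 DLK+ set 1), 146 (TPPB, without control set 1), 396 (U0126, without control set 3) and 2 to 82 in 6 cases between gates, the highest without E12.5 EpCAM+ set 1. Deviations of same-numbered sets correlated at r -0.36 to 0.31 over 72 bulk pairs, -0.006 to 0.145 over 20 embryo pairs and -0.16 to 0.055 over 8 explant pairs. Pairs with different numbers were not compared, so these values do not settle whether the numbers pair samples. No block could be fitted between days. With the block, calls lost were Sctr at E15.5 (adjusted p = 0.195), at E17.5 (0.0559) and within the EpCAM+ gate (0.317), Car2 at E17.5 (-1.87, 0.252) and Slc4a2 at E17.5 (0.995, 0.109). Cftr had no read in embryo cells, and 5 or more reads were found in 1 embryo cell for Aqp1, 1 for Slc5a1, 2 for Muc1 and 0 for Slc10a2, so differences in these were not detectable at this depth and cell number.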
